A study of Homo sapiens with 7 samples.

Results

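The miRNAs described here are 5 late-annotated entries of miRBase, the catalogue of miRNA sequences: hsa-miR-6767-5p, hsa-miR-12136, hsa-miR-3178, hsa-miR-6529-5p and hsa-miR-1180-3p, written below without the species prefix. They were taken by name, 5 of the 2656 mature miRNAs of the count table, as entries with late catalogue numbers outside the classical conserved families that were abundant or that shifted in these same libraries. They were thus chosen by the counts described here, and their abundance and their difference between groups are given as descriptions, with no p-value. The libraries came from HepG2, a human liver cancer cell line, and hold the miRNAs of its small extracellular vesicles (sEVs). The cells carried a lentiviral short hairpin RNA, selected with puromycin and induced with doxycycline, either a scrambled control (shCTR, 3 libraries) or a single hairpin against SYNCRIP (shSYNCRIP, 4 libraries). All cells were kept in medium with vesicle-depleted serum, and sEVs were pelleted by ultracentrifugation. The sample titles name HepG2 throughout and number the biological replicates, whereas their cell line field gives a different name for each sample, HepG2 in the first and HepG8 in the last. The study's methods call the shCTR libraries independent biological replicates and the shSYNCRIP libraries biological replicates, and which cultures or infections they came from is not given in the sources used here.

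A miRNA is cut from an RNA hairpin and can come from either of its arms, named 5p and 3p, and bases 2 to 8 of the mature strand, the seed, pair with target mRNAs. miRBase numbers were given in order of deposit, so that the well conserved families carry low numbers and later entries are mostly found in few species. Some late hairpins, called mirtrons, end at a splice site and are released from an intron by splicing, and other late entries lie inside tRNAs, snRNAs or rRNAs. SYNCRIP is an RNA-binding protein that the study examined as a factor loading miRNAs into sEVs through a short motif named hEXO. The count table holds miRNAs, and the SYNCRIP transcript was not measured in it. The study reports the silencing in HepG2 cells from RT-qPCR of the transcript and western blots of the protein.

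The mature sequences from RefSeq, on GRCh38.p14, are shown with the seed in capitals because none of the 5 share a seed.
miR-6767-5p: uCGCAGACagggacacauggaga
miR-12136: gAAAAAGUcauggaggcc
miR-3178: gGGGCGCGgccggaucg
miR-6529-5p: gAGAGAUCagaggcgcagagug
miR-1180-3p: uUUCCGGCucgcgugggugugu
Of the 2656 rows, 2367 were matched to a RefSeq mature sequence, all 5 members among them. No other matched row had the seed of miR-6767-5p, miR-12136, miR-6529-5p or miR-1180-3p, and miR-10394-3p shared that of miR-3178. The nearest other mature sequence lay 6 to 8 single-base changes, insertions or deletions away from each member. miR-3178 was the shortest of the 5, at 17 bases, with 88.2% G or C. Over all 2367 sequences the median was 52.2% G or C, and 0.972% had as much as miR-3178. miR-12136 had 18 bases, a length of 18 or less being shared by 5.49% of the sequences, and the other 3 members had 22 or 23.

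miR-6767-5p lies at chr16:2445397-2445419 on the plus strand, in an intron of CCNF, the gene of cyclin F, transcribed from the same strand. Its hairpin is shown because of where it ends, with the mature 5p arm in capitals.
MIR6767 hairpin: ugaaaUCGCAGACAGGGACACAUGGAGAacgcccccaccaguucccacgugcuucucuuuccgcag
The hairpin spans chr16:2445392-2445457 and its last base was the last base of the intron in GENCODE release 29, with 0 bases between it and the next CCNF exon, which begins at 2445458. It thus ends in the bases CAG of the splice acceptor, as in a tailed mirtron, while 1591 bases of the 1657-base intron lie upstream of it. A hairpin end at the last base of an intron was found for 196 of the 1562 RefSeq hairpins (12.5%), and for 23 of them the other end met the upstream exon too.

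miR-12136 is annotated at chr1:632668-632685 on the minus strand, in an intron of the pseudogene AL669831.3. Its hairpin at chr1:632615-632685 overlaps, on the opposite strand, the end of MTCO1P12, a nuclear copy of a mitochondrial gene. The mature sequence was also found, base for base, as bases 1 to 18 of MT-TS1, the mitochondrial tRNA for serine, at chrM:7446-7514 on the minus strand. The tRNA is shown, in the DNA letters of the GENCODE file, with the miR-12136 sequence in capitals.
MT-TS1: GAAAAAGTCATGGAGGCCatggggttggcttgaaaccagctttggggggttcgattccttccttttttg
MIR12136 hairpin: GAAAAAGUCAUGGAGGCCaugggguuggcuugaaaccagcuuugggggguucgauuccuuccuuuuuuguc
All 69 bases of MT-TS1 were identical to the first 69 of the 71 bases of the hairpin, so that counts of miR-12136 from the nuclear copy and from the 5′ end of the mitochondrial tRNA cannot be told apart. Of the 5 members, miR-12136 alone had an exact match in a GENCODE transcript that was not a miRNA.

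**Figure D1:**
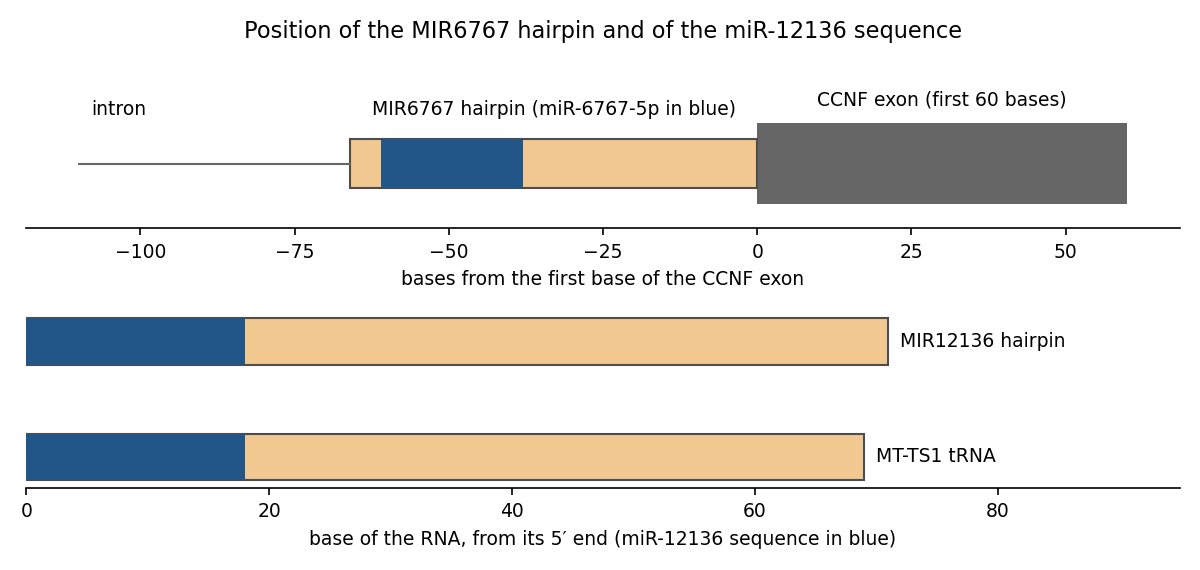
The upper map places the 66-base MIR6767 hairpin (orange, with miR-6767-5p in blue) relative to the first base of the downstream CCNF exon (grey, first 60 bases drawn), in bases. The lower map sets the 71-base MIR12136 hairpin above the 69-base MT-TS1 tRNA, in bases from the 5′ end, and the miR-12136 sequence (blue) takes the first 18 bases of both.

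miR-6529-5p lies at chr3:120084614-120084635 on the minus strand, in an intron of GSK3B, a kinase gene read from the same strand. miR-1180-3p lies at chr17:19344513-19344534 on the minus strand, in an intron of B9D1, a gene of the ciliary transition zone also read from that strand. miR-3178 lies at chr16:2531979-2531995 on the minus strand, in no other annotated gene, and the end of AMDHD2 lies 500 bases from its hairpin.

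The libraries differed widely in depth, which here means the total of miRNA counts and not the number of reads sequenced. The shCTR libraries held 106376 to 388226 miRNA counts with 180 to 227 miRNAs detected, and the shSYNCRIP libraries held 29863 to 240984 counts with 100 to 275 detected. shSYNCRIP replicate 2 was the shallowest and shSYNCRIP replicate 4 had the fewest miRNAs, and the mean shares that rest on either are given below with and without it. Of the liver miRNAs checked, miR-122-5p was counted in all 7 libraries (313 to 1664 counts), miR-192-5p had at most 1 count and miR-885-5p had 0. The 6 liver miRNAs took 1.14% to 2.17% of the counts in shCTR and 0.597% to 3.00% in shSYNCRIP, of which 5 were detected. The 4 red blood cell miRNAs took 18.4% to 26.3% and 12.7% to 21.7%, and the 4 white blood cell and platelet miRNAs 0.914% to 4.01% and 0.317% to 1.87%. Most of the red blood cell counts were miR-486-5p and miR-16-5p. Of the same list, miR-144-3p was counted in shSYNCRIP replicate 3 alone (138 counts), and miR-451a had 1 and 0 counts in shSYNCRIP replicates 2 and 4. Of the white blood cell and platelet list, miR-142-3p, miR-150-5p and miR-126-3p had 0 counts in shSYNCRIP replicate 4. The remaining miRNA of that list, miR-223-3p, had 364 counts in shSYNCRIP replicate 4 and 0 in shSYNCRIP replicate 2. The part of these lists in the values below was not tested.

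miR-6767-5p was among the most abundant miRNAs of these vesicles. Its counts were 7689, 7701 and 47370 in shCTR replicates 1 to 3, and 5454, 4301, 2463 and 3806 in shSYNCRIP replicates 1 to 4. As a share of all miRNA counts this was 7.23%, 5.24% and 12.2% in shCTR and 3.62%, 14.4%, 1.02% and 3.31% in shSYNCRIP. The highest and the lowest share of all 7 libraries were thus both in shSYNCRIP, and 3 of the 4 shSYNCRIP libraries lay below every shCTR library. The exact (Clopper-Pearson) 95% interval of the highest share ran from 14.01% to 14.81%, and that of the lowest 0.982% to 1.06%. These intervals cover counting error only and leave out the spread between replicates. Where reads were copied from the same molecule they are not independent, and the intervals are then too narrow for counting error too. By rank it was the first miRNA in shCTR replicate 3 and shSYNCRIP replicate 2, between 3rd and 8th in the next 4 libraries, and 26th in shSYNCRIP replicate 3. Over all libraries it ranked 3rd by mean share.

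The mean share of miR-6767-5p was 8.22% ± 3.58 (SD, n = 3) in shCTR and 5.59% ± 5.99 (SD, n = 4) in shSYNCRIP, 1.47-fold lower, less than the spread between replicates. The size of this difference depended on single libraries. Without shSYNCRIP replicate 2 the shSYNCRIP mean was 2.65% ± 1.42 (SD, n = 3), 3.10-fold below shCTR. Without shSYNCRIP replicate 3 the ratio was 1.16-fold, and without shCTR replicate 3 it was 1.12-fold. The fitted difference varied likewise, at -1.71 ± 0.41 (SE) on the log2 scale in limma-voom and -0.54 in the quasi-likelihood test. The limma-voom SE, here and below, comes from weighted libraries and a variance moderated across miRNAs. It does not measure the spread between replicates of a single miRNA. Without weights, the difference of mean log2 levels, from counts scaled to library size, was -1.03. These levels ran from 15.7 to 16.9 in shCTR and from 13.5 to 17.2 in shSYNCRIP.

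miR-12136 had 518, 799 and 2978 counts in shCTR and 2, 241, 281 and 0 in shSYNCRIP. Its share of counts was even in shCTR, at 0.487%, 0.544% and 0.767%. In shSYNCRIP it ran from not detected in replicate 4, where the floor of 3 counts stood at 0.00261%, through 0.00133% and 0.117% in replicates 1 and 3 to 0.807% in replicate 2. That last value, from the shallowest library (95% interval 0.709% to 0.915%), was above the highest shCTR share, so the groups overlapped. The means were 0.599% ± 0.148 (SD, n = 3) and 0.231% ± 0.388 (SD, n = 4), the latter 0.0393% ± 0.0669 (SD, n = 3) without replicate 2. In limma-voom the log2 fold change was -4.74 ± 1.88 (SE), -7.60 without shSYNCRIP replicate 2 and -3.90 without shSYNCRIP replicate 4, against a quasi-likelihood value of -1.34.

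miR-6529-5p showed a similar arrangement at a lower level. Its counts were 272, 371 and 628 in shCTR and 172, 157, 0 and 0 in shSYNCRIP, or 0.256%, 0.253% and 0.162% against 0.114% and 0.526% in replicates 1 and 2. The share in shSYNCRIP replicate 2 was again the highest of the 7, and the other 3 shSYNCRIP libraries lay below all shCTR libraries. The means were 0.223% ± 0.0533 (SD, n = 3) and 0.160% ± 0.250 (SD, n = 4), the latter 0.0380% ± 0.0658 (SD, n = 3) without replicate 2. In limma-voom the log2 fold change was -3.97 ± 2.02 (SE), -6.73 without shSYNCRIP replicate 2 and -3.12 without shSYNCRIP replicate 4, and its quasi-likelihood value was -0.51.

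miR-3178 had a higher mean in shSYNCRIP, as did miR-1180-3p, which is described after it. It had 327 counts in shCTR replicate 1 and 0 in shCTR replicates 2 and 3, against 512, 0, 880 and 1238 in shSYNCRIP. In the libraries that held it, its share was 0.307% in shCTR and 0.340%, 0.365% and 1.08% in shSYNCRIP, the highest in replicate 4. Detection in 1 of 3 shCTR and 3 of 4 shSYNCRIP libraries left the groups overlapping at 0. The means were 0.102% ± 0.177 (SD, n = 3) and 0.445% ± 0.453 (SD, n = 4), the latter 0.235% ± 0.204 (SD, n = 3) without replicate 4. Its log2 fold change in limma-voom, 6.06 ± 2.48 (SE), became 9.78 without shCTR replicate 1, 4.56 without shSYNCRIP replicate 4 and 7.19 without shSYNCRIP replicate 2, and the quasi-likelihood value was 2.22.

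miR-1180-3p was counted in 1 library. It had 617 counts in shSYNCRIP replicate 4, a share of 0.537% (95% interval 0.495% to 0.581%), and 0 counts in the other 6 libraries. The floor of 3 counts stood at 0.00282% in the shallowest shCTR library and 0.0100% in the shallowest shSYNCRIP library, while the exact 95% intervals of a 0 count, as plotted, reached slightly higher, to 0.00347% and 0.0124%. Its level in shSYNCRIP replicate 4 was at least 190.3-fold higher than the floor of 3 counts per library in any shCTR library. The filter on low counts removed it before the fits. Its mean in shSYNCRIP, 0.134% ± 0.268 (SD, n = 4), came from replicate 4 alone, without which it had 0 counts in every library.

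**Figure D2:**
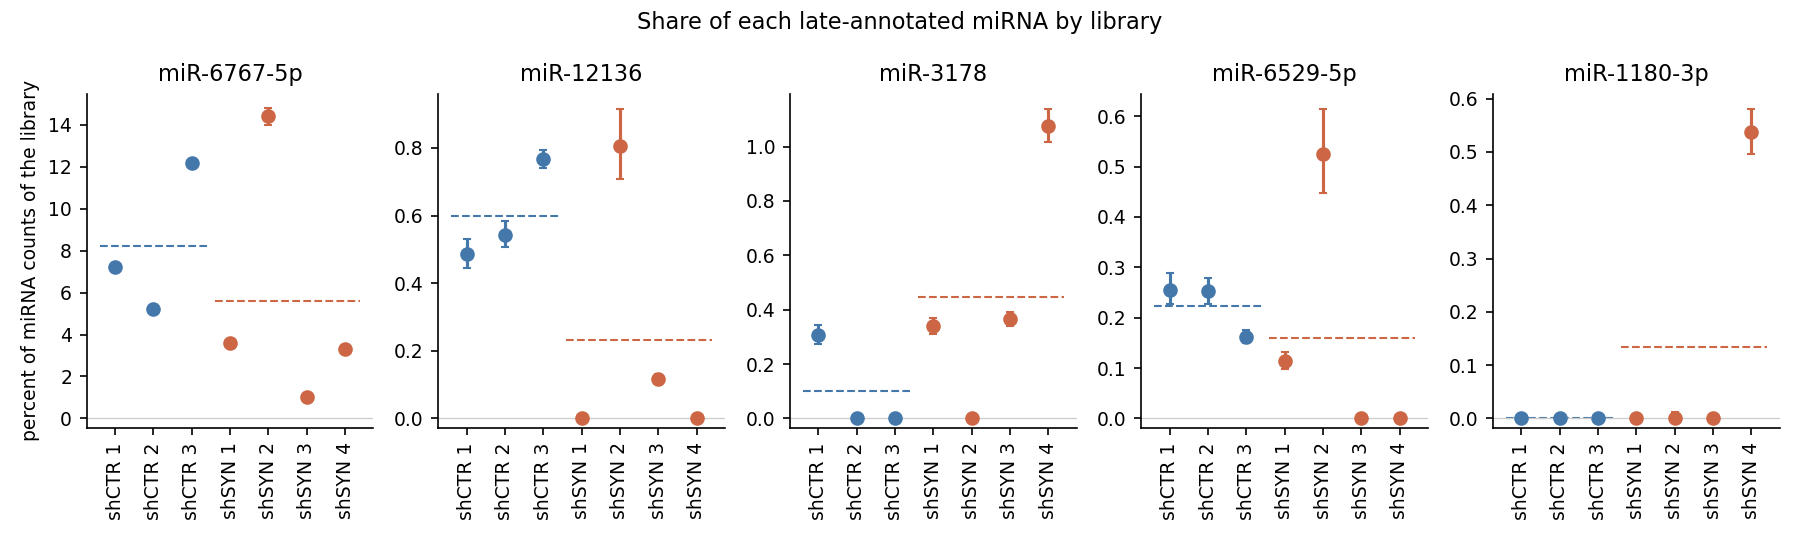
Each panel plots 1 miRNA, with its share of the miRNA counts (percent, linear axis of its own) in the 3 shCTR (blue) and 4 shSYNCRIP libraries (orange, written shSYN), exact 95% intervals for counting error and the group means as dashed lines. miR-6767-5p, miR-12136 and miR-6529-5p have their highest share in shSYNCRIP replicate 2, and miR-3178 and miR-1180-3p theirs in shSYNCRIP replicate 4.

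In order of mean share over the 7 libraries the members ranked 3rd (miR-6767-5p), 50th (miR-12136), 54th (miR-3178), 71st (miR-6529-5p) and 104th (miR-1180-3p) of all rows. The levels of the 4 rarer members overlapped between libraries and their order differed from library to library. Together the 5 took 6.04% to 13.1% of the counts in shCTR and 1.504% to 15.7% in shSYNCRIP, and miR-6767-5p alone made up 67.2% to 92.9% of that. No library held all 5, and each held 3 or 4.

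Of the 5 members, 4 passed the filter on low counts and were fitted with the 117 miRNAs tested. By the cutoffs of the study's methods, a limma-voom p under 0.1 with no adjustment and a change beyond 0.5, read here on the log2 scale, which the methods do not state, 3 were lower (miR-6767-5p, miR-12136 and miR-6529-5p) and 1 was higher (miR-3178) in shSYNCRIP. Over all miRNAs tested 12.8% were lower and 5.13% higher by these cutoffs, and as the members were picked for such shifts, nothing can be read from the comparison. At an adjusted p under 0.05, 2.56% of all miRNAs tested passed in limma-voom. In the quasi-likelihood test of edgeR 0 did (smallest adjusted p 0.316), and 2 of 117 (1.71%) had an unadjusted p under 0.05. For 0 of the 5 members did the groups separate without overlap, against 4.27% of the miRNAs tested with all shSYNCRIP libraries below and 2.56% with all above the shCTR libraries.

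**Figure D3:**
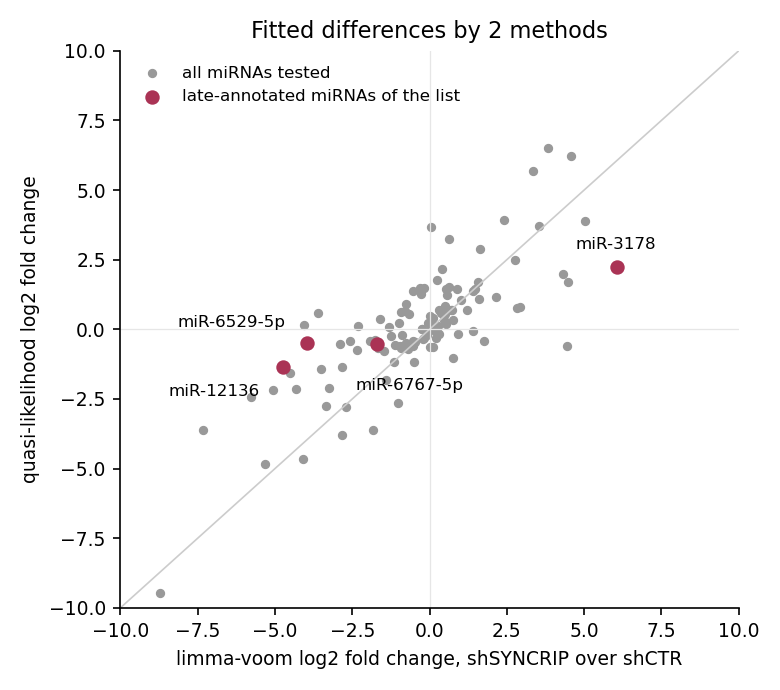
Each point is 1 of the 117 miRNAs tested, placed by its limma-voom log2 fold change (x axis) and its quasi-likelihood log2 fold change (y axis), shSYNCRIP over shCTR, with equal values on the grey diagonal. The 4 fitted members (red) keep their direction but lie nearer to 0 on the y axis, from -1.34 to 2.22, than on the x axis, from -4.74 to 6.06. Of all 117 miRNAs tested, 66 (56.4%) had a larger limma-voom than quasi-likelihood size, and the members were picked for shifts.

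The opposite arms of the members were not used to choose them. miR-6767-3p had 0 counts in every library against 78784 of miR-6767-5p over all libraries, which allows it a share of up to 0.00381% of the hairpin's counts. Such one-sided hairpins were common at this depth. Of the 20 hairpins with a row for each arm and a major arm at 10000 counts or more, 9 had a minor arm at 0, miR-6767 and miR-191 among them. The share of the minor arm in the 20 reached 49.9%, for miR-126. miR-1180-5p also had 0 counts against 617 of the 3p arm, allowing a share of up to 0.486%. miR-6529-3p had 305 counts in shSYNCRIP replicate 3, a library in which miR-6529-5p had 0, and 0 counts in the other 6. The 2 arms of the MIR6529 hairpin were thus counted in different libraries, and the 3p arm held 16.01% of the counts of the hairpin, 305 against 1600 of the 5p arm. miR-3178 and miR-12136 have no row for an opposite arm. miR-10394-3p, which has the seed of miR-3178, had 182 counts in shSYNCRIP replicate 3 and 0 in the other 6 libraries. The filter on low counts removed these arms and the seed relative. With no filter, miR-6529-3p and miR-10394-3p were at 2.33 ± 1.33 (SE) and 2.21 ± 1.23 (SE) on the log2 scale, each with an adjusted p of 0.414 in limma-voom and 0.461 in the edgeR quasi-likelihood test.

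The members were then set beside the other miRNAs with a miRBase number of 1000 or above, 1693 rows of which 71 had at least 1 count. These took 1.52%, 1.56% and 1.87% of the counts in shCTR and 1.15%, 3.98%, 5.39% and 4.01% in shSYNCRIP, so that 3 of the 4 shSYNCRIP libraries lay above all shCTR libraries and replicate 1 below them. The means were 1.65% ± 0.193 (SD, n = 3) and 3.64% ± 1.78 (SD, n = 4). The difference of 1.98 percentage points had p = 0.229 in a two-sided exact permutation test. With 3 and 4 libraries this test cannot go below 0.0571 and so cannot reach 0.05. The members, listed for being high or shifting in these libraries, had been taken out, so the share is not free of that choice. The difference was 1.87 without shSYNCRIP replicate 2 and 1.86 without shSYNCRIP replicate 4 (exact permutation test, p = 0.4 for each, where 3 against 3 libraries cannot go below 0.1). A few rows held much of the higher shares. In shSYNCRIP replicate 2, miR-10396a-5p and miR-10396b-5p took 1.14% each, and in replicate 3 miR-1290 took 2.50%. In replicate 4, miR-7704 and miR-6777-5p took 1.19% and 0.959%. With the members included, the class took 9.80%, 7.60% and 15.0% in shCTR. In shSYNCRIP it then took 5.22%, 19.7%, 6.90% and 8.94%, so the groups overlapped.

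**Figure D4:**
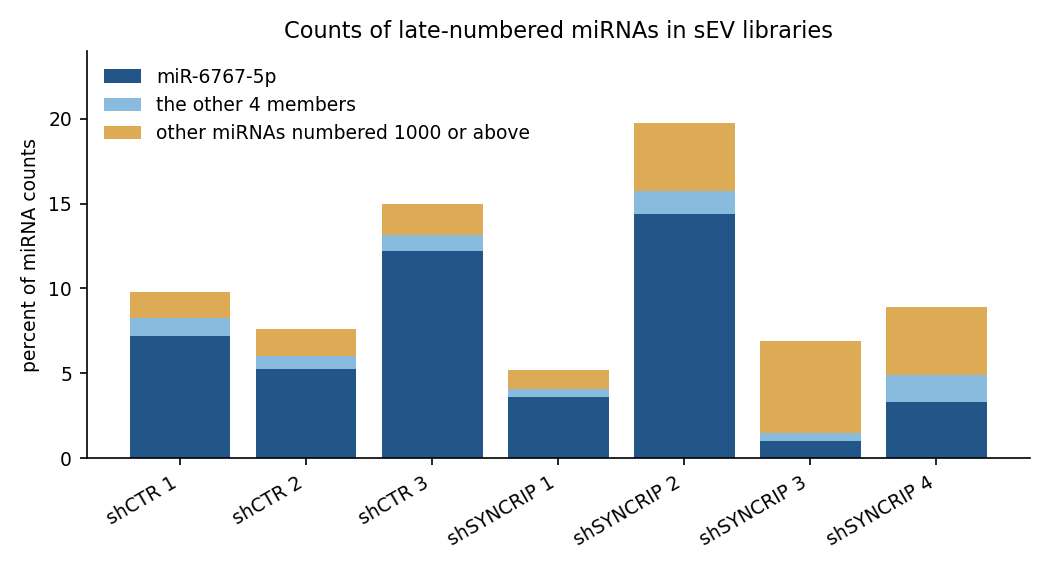
Stacked bars give, for each library, the percent of miRNA counts taken by miR-6767-5p (dark blue), the other 4 members (light blue) and the other miRNAs numbered 1000 or above (yellow). miR-6767-5p takes most of each bar except in shSYNCRIP replicates 3 and 4, where the other late-numbered miRNAs hold 5.39% and 4.01%.

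Of these other late-numbered miRNAs, 5 were tested, and 0 of the 5 met the study's cutoffs, against 17.9% of all miRNAs tested. Their median limma-voom log2 fold change was 1.22, beside -0.07 over all miRNAs tested. As members listed for being high or shifting in these libraries had been taken out, nothing can be read from either value. miR-1246 had 868, 233 and 813 counts in shCTR and 841, 306, 1416 and 367 in shSYNCRIP (1.22 ± 1.07 (SE) on the log2 scale, adjusted p 0.763 in limma-voom). It was, with miR-6767-5p, the late-numbered miRNA counted in all 7 libraries. miR-1290 had 6030 counts in shSYNCRIP replicate 3 and at most 707 elsewhere (0.63 ± 2.95 (SE), adjusted p 0.992 in limma-voom). miR-1306-5p, miR-4492 and miR-5100 had log2 fold changes of 1.39, 3.53 and -3.27, with limma-voom adjusted p values of 0.992, 0.685 and 0.763.

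The list has no numerical threshold, and some late-numbered miRNAs outside it were more abundant than most members: miR-1246 and miR-1290 had mean shares of 0.525% and 0.498%, above all members but miR-6767-5p. Of the 10 most abundant outside the list, miR-7704 had 1371 counts and miR-6777-5p 1103 counts in shSYNCRIP replicate 4, and 0 in the other 6 libraries. miR-10396a-5p and miR-10396b-5p had 339 counts each in shSYNCRIP replicate 2 and 0 elsewhere. Counting in a single library, as for miR-1180-3p, thus recurred in the class. miR-1260a and miR-1260b had 1429 and 1430 counts in shCTR replicate 3, 495 each in shSYNCRIP replicate 4 and at most 3 in any other library. miR-6773-5p had 197 and 767 counts in shSYNCRIP replicates 1 and 4 and at most 2 elsewhere.

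Of the 76 late-numbered miRNAs detected, members included, 48 (63.2%) were detected in 1 library and 2 (2.63%) in all 7. Of the 330 earlier-numbered miRNAs detected, 83 (25.2%) were detected in 1 library and 63 (19.1%) in all 7. Both shares move with abundance, and the classes were not matched for it. Among miRNAs that reached 100 counts in some library, 22 of 36 late-numbered ones (61.1%) had over 3 counts in that library alone, against 34 of 161 earlier-numbered ones (21.1%).

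**Figure D5:**
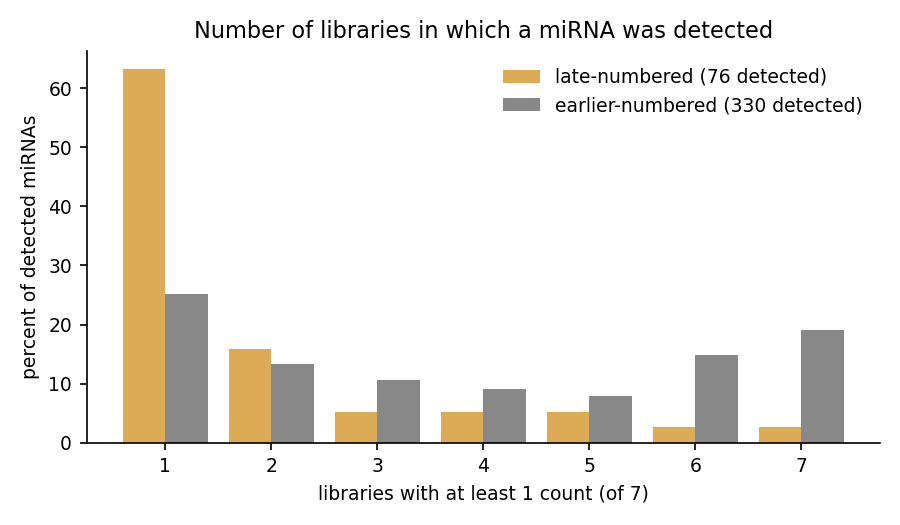
Bars give the percent of detected miRNAs (y axis) by the number of libraries with at least 1 count (x axis), for 76 late-numbered (yellow) and 330 earlier-numbered miRNAs (grey). The late-numbered miRNAs pile up at 1 library (63.2%), the earlier-numbered ones at 1 (25.2%) and 7 libraries (19.1%).

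The members also differed in how their levels moved over the 7 libraries, on a log2 scale of counts scaled to library size. miR-6767-5p moved most like miR-6529-5p (Pearson r = 0.78, Spearman rho = 0.83), followed by miR-324-5p (r = 0.65, rho = 0.57) and miR-124-3p (r = 0.65, rho = 0.36). miR-12136 moved most like miR-369-3p (r = 0.98, rho = 0.75), which had 718, 642 and 623 counts in shCTR and 3, 161, 193 and 0 in shSYNCRIP. Next to miR-12136 came miR-15b-5p (r = 0.84, rho = 0.86) and miR-25-3p (r = 0.79, rho = 0.50). miR-3178 moved most like miR-92a-3p (r = 0.81, rho = 0.85), miR-24-3p (r = 0.74, rho = 0.96) and miR-127-3p (r = 0.67, rho = 0.41). Those nearest to miR-6529-5p were miR-129-5p (r = 0.93, rho = 0.78), miR-124-3p (r = 0.91, rho = 0.63) and miR-328-3p (r = 0.87, rho = 0.88). Among the fitted members miR-3178 ran opposite to the other 3, with r between -0.72 and -0.69. As the members were listed for being high or shifting in these same libraries, nothing can be read from this. All of these correlations describe 7 points that share their libraries and depth, and zeros in the same library weigh heavily in them.

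The hEXO motif, as the study defines it, is 6 bases long: 3 bases other than C, a base other than U, then A or U, then G or C. Searched on the miRNA strand after base 7, it was found in miR-6767-5p (AGGGAC, from base 9), miR-12136 (AUGGAG, from base 10), miR-6529-5p (AGAGUG, from base 17) and miR-1180-3p (UGGGUG, from base 14), and not in miR-3178. The first match of each is given. Counting overlapping matches, miR-6767-5p held 3 and miR-1180-3p held 2. Of all 2367 sequences 63.6% held it, and of the 105 tested miRNAs with a sequence 61.9% did. The bases GAC, in which the m6A mark lies in the synthetic miR-6767-5p of the study, occurred in miR-6767-5p alone of the 5, from base 6 and again further on, and in 23.1% of all sequences. The letters GGAC, part of the second of these, were in 8.91% of all sequences. A match is a description of the letters and no site. Binding to miR-6767-5p was examined in the study, by pull-down from HepG2 extracts with the synthetic miRNA. The study reports that SYNCRIP bound the form with the m6A mark and that binding was impaired without it.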

How the data were processed

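Small RNA-seq libraries of HepG2 sEVs (3 shCTR, 4 shSYNCRIP) were compared. The authors trimmed adapters, filtered reads with Cutadapt, kept forward reads, aligned them to miRBase hairpins and mature sequences with MiRDeep2, and deposited raw counts per mature miRNA. How reads that fit several rows were counted is not given in the sources used here. Columns were matched to samples by group and replicate number in the titles.

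From these counts, miRNAs were filtered with filterByExpr of edgeR (117 of 2656 kept, 93.7% to 99.1% of counts), scaled by TMM and fitted with limma-voom. The study's methods name filtering, TMM and limma-voom but do not say which filter was used. The edgeR quasi-likelihood test gave second values. P-values were Benjamini-Hochberg adjusted over all miRNAs tested. Shares are percent of a library's miRNA counts. The class share was compared by a two-sided exact permutation test, which doubles the smaller tail, over the 35 splits into 3 and 4 libraries. The scripts were tested on simulated counts, where both tests found the changed miRNAs at a low spread between replicates and neither called any at a high spread. R 4.3.3, edgeR 4.0.16, limma 3.58.1, DESeq2 1.42.0 and Python 3.11.15 were used.

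Named miRNAs were the members, their opposite arms and seed relatives, the 3 most alike by Pearson correlation, and the 10 most abundant late-numbered non-members. miR-4492 and miR-5100 were named as the rest of the 5 tested. Members and lists were chosen with earlier results of these data known. Mature and hairpin sequences came from RefSeq (GRCh38.p14), genes and transcripts from GENCODE 29 (GRCh38). Replicate numbers did not pair the libraries. Library totals of 29863 to 388226 limit rare miRNAs. Alternatives were other size factors, filters and tests, a replicate block, another prior count, scaling without the members and leaving out each library.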

Additional observations from a re-analysis of the deposited data

Results flagged for a closer look

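Among the 8 groups of 4 shSYNCRIP values examined for a library far from the other 3, 2 were singled out. Chance gives about 0.4 where values were not chosen, but the members were listed for being high or shifting in these same libraries, so the count is no test. miR-12136 stood apart in shSYNCRIP replicate 2, at 0.807% of the counts against at most 0.117% in the other 3, in the shallowest library. miR-1180-3p was at 0.537% in shSYNCRIP replicate 4 and at 0 counts in the other 3, and a miRNA counted in 1 library is always singled out in this way. What sets these values apart was not tested.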

How the results depend on the processing

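The direction of the log2 fold change was the same under all 15 alternatives for miR-6767-5p (-2.52 to -0.54), and under all 14 that could be fitted for miR-12136 (-7.60 to -1.32), miR-3178 (2.22 to 9.78) and miR-6529-5p (-6.73 to -0.40). The smallest of these sizes came from the quasi-likelihood test and DESeq2, where miR-6529-5p moved to -0.40 in DESeq2, and the cause was not tested. Requiring 10 counts or more in each of the libraries left miR-6767-5p as the member tested, by its construction. miR-1180-3p has no fitted value here. Leaving out 1 library at a time, the values ran from -2.52 to -1.04 for miR-6767-5p, -7.60 to -3.90 for miR-12136, 4.35 to 9.78 for miR-3178 and -6.73 to -2.67 for miR-6529-5p. The number of miRNAs past the study's cutoffs, 21 of 117, was 87 with no filter, 3 with 10 counts or more required in each library (fewer miRNAs tested), 8 with the quasi-likelihood test, 11 with DESeq2, 13 with the replicate block and 16 to 22 with 1 library left out. The number at an adjusted p under 0.05, 3 in limma-voom, was 6 with no filter, 0 with 10 counts or more required in each library, 0 with the quasi-likelihood test, 1 with the replicate block and 1 to 9 with 1 library left out (9 without shSYNCRIP replicate 3, 1 without shCTR replicate 3 or shSYNCRIP replicate 4).

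The replicate numbers did not pair the libraries, as same-numbered libraries correlated at -0.06, -0.03 and 0.09 in their deviations from the group means, and 2 of 6 libraries correlated best with their own number. With the replicate block the log2 fold changes were -1.44, -2.61, 3.83 and -2.55 for miR-6767-5p, miR-12136, miR-3178 and miR-6529-5p. The share of the other late-numbered miRNAs differed by 1.36 to 2.81 percentage points under its alternatives, with exact permutation p values from 0.1 (without shSYNCRIP replicate 1, every library separated) to 0.4. With a library left out the test cannot go below 0.1 (3 against 3) or 0.133 (2 against 4), so these p values say nothing about stability. Leaving out libraries from the mean share of miR-6767-5p, chosen after seeing the data, moved the difference of -2.64 percentage points to between -5.57 and -0.65. Depth limits the members at 0 counts, where the floor of 3 counts lay between 0.000773% and 0.0100%.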

Other observations

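Apart from miR-6767-5p, 10 further rows with counts came from hairpins that end at the last base of an intron. They were found after the position of MIR6767 had been seen, and no test was run on them. The next in abundance was miR-369-3p, in MEG9, with 2340 counts over all libraries, followed by miR-6777-5p in SREBF1 (1103 counts), miR-6773-5p in ESRP2 (966) and miR-877-5p in ABCF1 (652). All 10 together took 0.162% to 0.745% of the counts in shCTR and 0.214% to 1.63% in shSYNCRIP, where the highest value was in replicate 4.

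Of the 365 detected miRNAs with a RefSeq sequence, 6 were found whole inside another small noncoding RNA of GENCODE, 4 of them late-numbered. miR-1246, with 4844 counts over all libraries, matched U2 snRNA genes such as RNU2-1, and miR-12136, with 4819, matched MT-TS1. miR-4485-3p matched the mitochondrial rRNA MT-RNR2 and was counted in shCTR replicate 2 alone. The other 3 rows had 2 to 6 counts each.

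The paired rows miR-1260a and miR-1260b, whose sequences are 2 changes apart, and miR-10396a-5p and miR-10396b-5p, 1 change apart, had counts that differed by at most 3 in every library. Whether the same reads were counted in both rows was not tested.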
